A study of Mus musculus with 143 samples.

Results

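The metaphase II (MII) egg waits for sperm with its chromosomes aligned, and 9 genes that hold or release that arrest were followed in single mouse oocytes: Mos, Plk1, Fbxo43, Fbxo5, Cdc20, Fzr1, Mad2l1, Bub1b and Pttg1. They were taken by name, for their known roles in cytostatic factor, in the anaphase-promoting complex (APC/C) and in the spindle checkpoint, from the 55740 gene IDs of the count tables. Each of the 9 passed the low-count filter in every comparison. The study removed Dis3, Exosc10 or both, which encode RNases of the nuclear RNA exosome and process or degrade transcripts in the nucleus. The question it addressed, from its title, was how transcription and female fertility are affected in oocytes that lack them. Poly(A) libraries of single cells covered oocytes with an intact nucleus (germinal vesicle, GV), oocytes after 3 h of culture (GV3h) and ovulated MII eggs of superovulated mice, each as control (8 libraries per stage) and dis3cKO (15, 16 and 16 libraries). RiboMinus libraries, made from total RNA with random primers, covered adult GV oocytes as control and dis3cKO, and, from mice 20 days after birth (p20), control, dis3cKO, exo10cKO and dcKO oocytes, with 8 libraries in each group. In the text these genotypes are called Dis3 cKO, Exosc10 cKO and dcKO. Mutant oocytes came from mice made by CRISPR/Cas9 per the labels, which name no Cre driver and no animal for each oocyte, so p-values measure the spread between oocytes, which may share an animal.

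As background, the MOS kinase starts the MEK-ERK pathway that gives the egg its cytostatic activity, and FBXO43 (EMI2) binds the APC/C and keeps it from destroying cyclin B and securin until fertilization. FBXO5 (EMI1) and FZR1 (CDH1) act earlier, in the prophase arrest of the GV oocyte, where FZR1 activates the APC/C against cyclin B and FBXO5 opposes it. CDC20 activates the APC/C at anaphase, MAD2L1 (MAD2) and BUB1B (BUBR1) restrain CDC20 while kinetochores are unattached, PTTG1 (securin) inhibits separase, and PLK1 drives entry into division and marks FBXO43 for destruction at egg activation.

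Gene positions are those of RefSeq on mouse build GRCm38.p6; the submitters' processing notes name mm10. Mos is at chr4:3870658-3872105, Plk1 at chr7:122159435-122169884, Fbxo43 at chr15:36150060-36169940, Fbxo5 at chr10:5799158-5805465, Cdc20 at chr4:118432901-118437343, Fzr1 at chr10:81366879-81378370, Mad2l1 at chr6:66535221-66541107, Bub1b at chr2:118598202-118641592 and Pttg1 at chr11:43420244-43427463. Cdc20 shares 53 bases with the gene Elovl1, and Fbxo43 spans 145 bases of the small nuclear RNA gene Gm22979, so that a few reads of these genes could have another source where counting ignored strand.

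RefSeq promoter windows (GRCm38.p6, 250 bases before to 50 after the start site) were given for 7 of the 9 genes, all but Mos and Fbxo43. The letters TTTGAA, read on both strands, are those of the cell cycle genes homology region found in promoters of genes that peak in mitosis. The Pttg1 window lies inside the gene span given above, so it does not cover the outer end of that span. TTTGAA occurred in 4 of the 7 windows, those of Plk1, Fbxo5, Cdc20 and Bub1b, and in 16.0% of the 21263 windows in the table. The letters CCAAT, read on both strands, occurred in those 4 and in Fzr1, and in 38.2% of all windows. These are matches of letters and no measured sites. The 4 windows with TTTGAA are shown because they are what these members share outside the expression data, on their own strands at chr7:122159185-122159484 (+), chr10:5805416-5805715 (-), chr4:118437294-118437593 (-) and chr2:118597961-118598260 (+), 5′ to 3′, with both motifs in capitals.
Plk1: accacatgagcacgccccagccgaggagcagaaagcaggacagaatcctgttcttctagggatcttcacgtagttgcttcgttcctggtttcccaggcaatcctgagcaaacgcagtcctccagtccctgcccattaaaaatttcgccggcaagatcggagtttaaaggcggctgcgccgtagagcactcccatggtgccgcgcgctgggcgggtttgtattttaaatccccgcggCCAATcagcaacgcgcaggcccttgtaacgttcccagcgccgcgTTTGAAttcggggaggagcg
Fbxo5: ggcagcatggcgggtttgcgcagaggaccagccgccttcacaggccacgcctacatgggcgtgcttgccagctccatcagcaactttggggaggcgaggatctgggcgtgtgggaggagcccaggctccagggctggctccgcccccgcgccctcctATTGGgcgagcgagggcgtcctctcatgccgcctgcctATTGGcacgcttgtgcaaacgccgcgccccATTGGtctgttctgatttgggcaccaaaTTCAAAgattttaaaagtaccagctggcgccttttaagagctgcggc
Cdc20: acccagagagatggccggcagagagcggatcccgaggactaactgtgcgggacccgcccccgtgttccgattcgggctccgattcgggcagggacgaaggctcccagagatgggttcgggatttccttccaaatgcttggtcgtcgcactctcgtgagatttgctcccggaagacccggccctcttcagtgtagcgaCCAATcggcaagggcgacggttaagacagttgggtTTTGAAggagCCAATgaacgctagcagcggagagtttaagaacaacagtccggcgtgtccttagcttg
Bub1b: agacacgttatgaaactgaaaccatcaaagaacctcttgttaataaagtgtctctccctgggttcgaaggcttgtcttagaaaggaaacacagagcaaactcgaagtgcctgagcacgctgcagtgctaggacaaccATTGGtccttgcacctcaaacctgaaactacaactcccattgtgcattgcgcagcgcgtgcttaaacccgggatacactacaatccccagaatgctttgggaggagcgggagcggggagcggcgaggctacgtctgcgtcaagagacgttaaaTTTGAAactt

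CUT&Tag peak lists, the authors' calls for each library, were compared with the same 7 windows by any overlap. H3K27me3 peaks overlapped 0 of the 7 windows in each of 12 lists, where 10.6 to 20.1% of all windows carried such a peak. With 7 windows, 0 lies near these shares, and the 12 lists were read over the same windows. Peaks of phosphorylated RNA polymerase II lay on the Fbxo5 window in 1 of 3 adult control lists and 1 of 3 p20 control lists, on the Plk1 and Fzr1 windows in 1 of 3 p20 control lists and on the Bub1b window in 1 of 3 adult Dis3 cKO lists, against 1.39 to 6.27% of all windows. No member window had a polymerase peak in more than 1 library of a group.

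Poly(A) libraries held 4843964 to 15412200 gene counts and RiboMinus libraries 8492102 to 35429028. Every member had at least 70 counts in each poly(A) library and 462 in each RiboMinus library. Dis3 was far below control in every Dis3 cKO group (0.76 ± 0.68 CPM in 16 MII eggs against 9.70 ± 5.90 in 8 controls, SD) and at 2.83 ± 0.95 in dcKO (n = 8), where Exosc10 was at 7.26 ± 4.47 against 117.3 ± 12.03 in p20 controls (n = 8). All 8 oocyte markers (Gdf9, Zp3 and others) were detected in every group, at summed levels of 4368 to 20370 CPM over the poly(A) libraries. The 10 granulosa markers summed to 43.0 to 176 CPM in these libraries, with Ptx3 at 0 in every poly(A) group and Foxl2 and Inha also at 0 in MII Dis3 cKO eggs. Their sum was lower in MII Dis3 cKO eggs (58.7 to 94.4) than in MII controls (104 to 145). Its medians were lower in Dis3 cKO also at GV (84.6 against 116) and GV3h (67.95 against 85.9). Gene by gene, the median log2 fold change of the 8 granulosa markers tested was -0.51 at GV (0 called higher, 2 lower). It was 0.50 at GV3h (1 higher, 1 lower) and -0.86 at MII (1 higher, 4 lower). The part of these markers in the differences at each stage was not tested. In MII eggs 5 of the 8 oocyte markers were called higher in Dis3 cKO (list median 0.62, all genes 0.16), and in adult RiboMinus oocytes 5 of 8 were called lower (list median -0.40, all genes 0.03), with sums of 5891 to 8887 CPM against 7516 to 12260 in controls. Their part in the member differences was not tested. MII Dis3 cKO egg 15 stood apart, with 14.4 gene counts per ERCC count where its group averaged 55.5 ± 15.3 (SD, n = 16) and with Mos at 9.62 CPM, so results that rest on it are also given without it.

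The first question was how the members change as control oocytes mature. Levels are counts per 1000000 scaled by TMM (CPM), which follow a gene's share of the sequenced mRNA. Scaling to the ERCC RNAs added to each lysate follows instead the amount captured per cell, and on that scale the median of all tested genes changed by -2.12 from GV to MII controls on the log2 scale, against -0.27 under TMM. As shares of the pool, 5 of the 9 members rose from GV to MII in controls (Fbxo43, Cdc20, Mad2l1, Bub1b and Pttg1) and Fzr1 fell, where 58.5% of all tested genes were called, 22.7% of all being higher and 35.8% lower. Per ERCC all 9 members were lower in MII, as were 87.5% of all tested genes, so the rises were in share of the pool and not in the amount captured per ERCC count. Of the 8 oocyte markers 2 were called higher and 6 lower as shares (list median -2.39), and of 8 granulosa markers tested 1 was higher and 5 lower (list median -1.80). Their part in the member changes was not tested. In Dis3 cKO these counts were 3 and 5 (list median -1.53) and 1 and 5 (-1.09).

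Among the cytostatic genes, Fbxo43 ranged from 151 to 218 CPM (median 179.8) in 8 GV controls and from 398 to 539 (median 442) in 8 MII controls. The ranges were far apart, and the log2 fold change was 1.29 under TMM (SE 0.10, edgeR adjusted p 1.78e-19), or -0.55 when scaled to ERCC (SE 0.19, adjusted p 0.00599). Mos ranged from 1257 to 2403 CPM (median 1572) in GV controls and from 1008 to 3029 (median 1436) in MII controls. The MII controls fell into 5 eggs at 1008 to 1466 CPM and 3 eggs (numbers 6, 7 and 8) at 2560 to 3029, and the change of 0.21 (SE 0.32, edgeR adjusted p 0.595) did not pass the threshold. Plk1 stood at 193 ± 35.2 CPM in GV and 181 ± 38.1 in MII controls (SD, n = 8 each), with overlapping ranges and a change of -0.09 (SE 0.12, adjusted p 0.546).

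As shares of the pool the APC/C activators moved in opposite directions from GV to MII, while per ERCC both were lower at MII. Cdc20 ranged from 61.2 to 142 CPM (median 84.4) in GV, from 138 to 194 (median 148) in GV3h and from 132 to 281 (median 209.6) in MII controls. It was among the few genes already called after 3 h, at 0.82 (SE 0.17, edgeR adjusted p 0.00212), and stood 1.26 above GV at MII (SE 0.17, adjusted p 1.03e-09), while per ERCC it was 1.05 higher at GV3h (adjusted p 0.0122) and 0.60 lower at MII (change -0.60, adjusted p 0.0160). Fzr1 ranged from 92.3 to 195 CPM (median 149) in GV and from 28.3 to 59.8 (median 40.4) in MII controls, with no overlap. Its log2 fold change was -1.75 under TMM (SE 0.24, edgeR adjusted p 1.27e-09), or -3.67 when scaled to ERCC (SE 0.40, adjusted p 5.34e-13), so Fzr1 is the member that was lower at MII on both scales and beyond the median of all genes on both. Fbxo5, the prophase APC/C inhibitor, kept overlapping ranges with medians of 186 CPM in GV, 156 in GV3h and 168 in MII controls, and its MII change was -0.13 (SE 0.16, adjusted p 0.518).

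Both checkpoint genes rose as shares of the pool. Mad2l1 ranged from 213 to 309 CPM (median 237) in GV and from 572 to 880 (median 648) in MII controls, a log2 fold change of 1.46 under TMM (SE 0.13, edgeR adjusted p 1.51e-16), or -0.40 when scaled to ERCC (SE 0.15, adjusted p 0.0141). Bub1b ranged from 840 to 1361 CPM (median 1107) in GV and from 1599 to 2092 (median 1762) in MII controls, a change of 0.71 (SE 0.22, adjusted p 0.00397) that was -1.16 per ERCC. Securin (Pttg1) ranged from 936 to 1563 CPM (median 1140) in GV and from 1626 to 2416 (median 1785) in MII controls, a change of 0.65 (SE 0.14, adjusted p 3.59e-05) that was -1.21 per ERCC. For both genes the GV and MII ranges did not overlap.

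In counts per 1000 ERCC counts, Mad2l1 went from 34.8 ± 4.89 to 26.5 ± 4.01 and Fbxo43 from 25.6 ± 3.00 to 17.4 ± 2.88 (SD, n = 8 each). Fzr1 went from 20.7 ± 7.20 to 1.63 ± 0.29, and Mos from 224 ± 49.9 to 70.96 ± 29.6. After 3 h of culture 2 of the 9 members were called in controls (Plk1 and Cdc20, both higher), where 2.71% of all tested genes were (1.14% higher, 1.56% lower). Of 8 granulosa markers tested 0 were higher and 2 lower (list median -0.80), and of the 8 oocyte markers 0 were called (list median 0.19). Their part in the member changes at 3 h was not tested. The Plk1 call at 3 h (0.40, SE 0.12, edgeR adjusted p 0.0456) was lost in 11 of 71 fits that left out 1 library, with changes of 0.35 to 0.50, and under ERCC scaling (0.64, adjusted p 0.202).

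**Figure D1:**
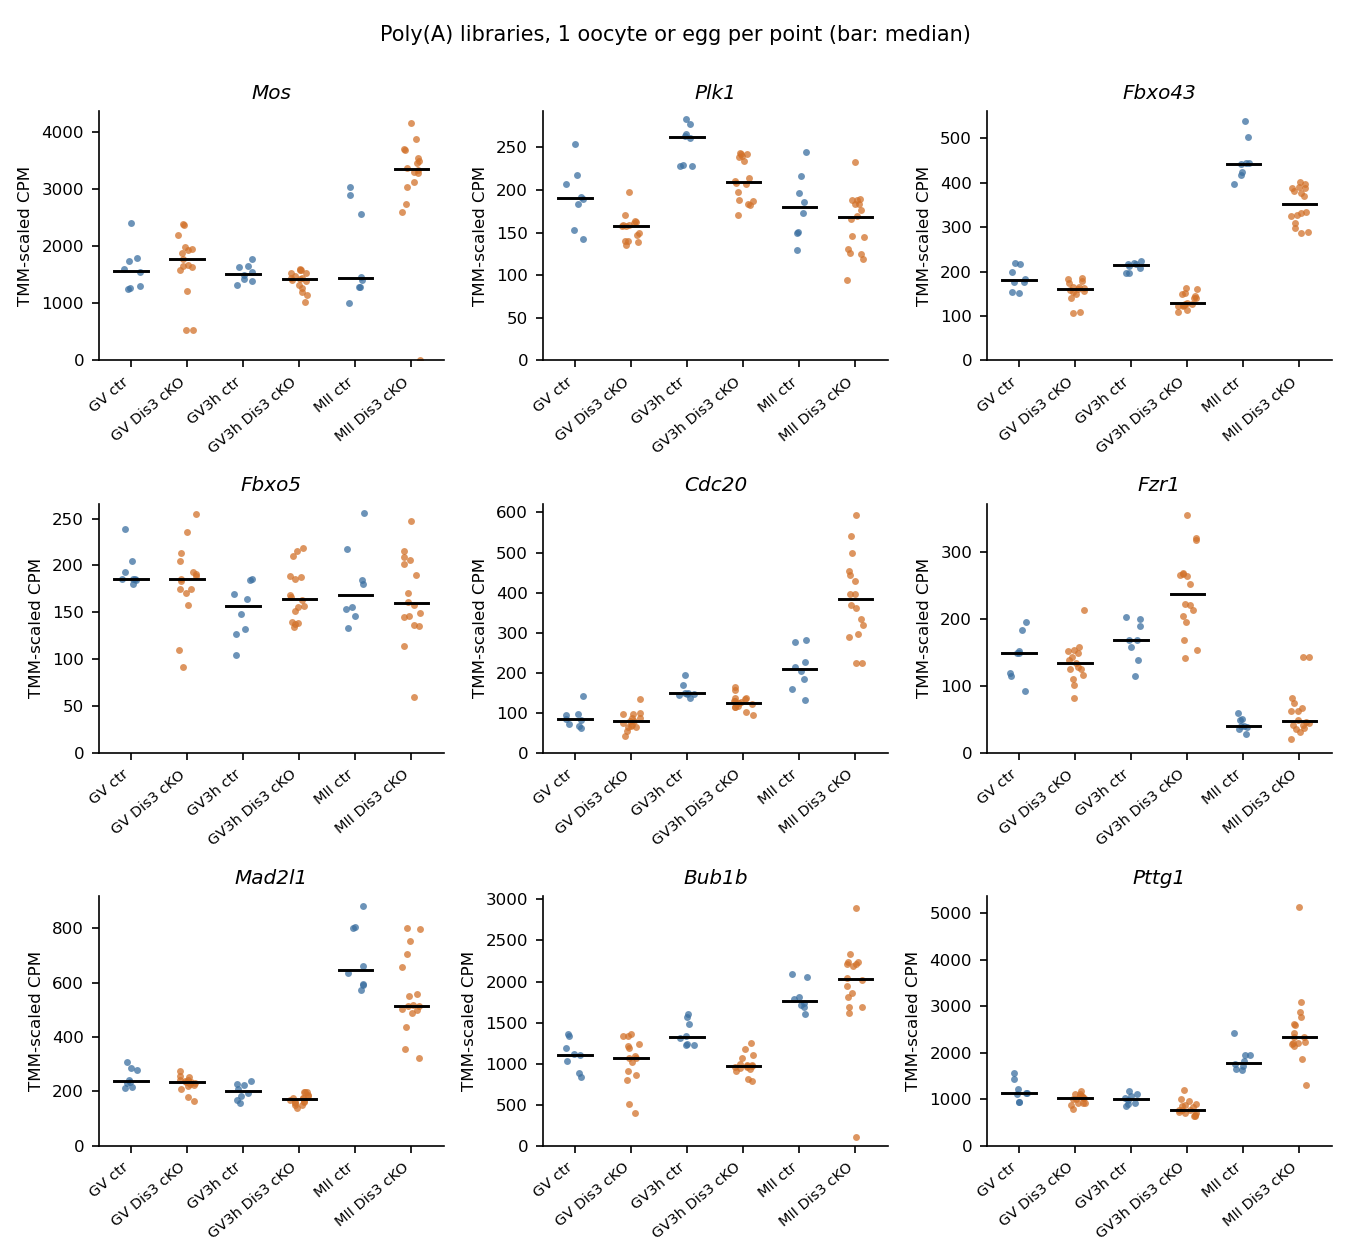
TMM-scaled CPM (linear axes from 0) of the 9 genes in each poly(A) library, by stage and genotype; each point is 1 cell and the bar is the group median. Fbxo43, Mad2l1 and Pttg1 stand higher at MII than at GV and Fzr1 lower, as shares of the mRNA pool, whereas per ERCC all 9 were lower at MII in controls; the lone Mos point near 0 is MII Dis3 cKO egg 15 (9.62 CPM).

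Dis3 cKO cells went through the same stages, and there 7 of the 9 members were called between GV and MII (6 higher, Fzr1 lower), where 63.3% of all tested genes were (24.8% higher, 38.5% lower). Cdc20 ranged from 43.4 to 135 CPM (median 78.7) in 15 GV and from 224 to 594 (median 383) in 16 MII cells. The ranges did not overlap, and Cdc20 rose by 2.26 under TMM (SE 0.13, edgeR adjusted p 1.42e-26) and by 0.98 under ERCC scaling (SE 0.17, adjusted p 4.73e-07). It was the only member called higher at MII on both scales, where 1.31% of all tested genes were called higher per ERCC. Mos, which encodes the kinase at the top of the cytostatic pathway, rose by 0.91 (SE 0.23, adjusted p 4.96e-04) as a share of the pool, with a per-ERCC change of -0.22 (adjusted p 0.419), and without egg 15 its TMM change was 1.00. Pttg1 rose by 1.33 (SE 0.10, adjusted p 1.15e-19), Mad2l1 by 1.30 (SE 0.09), Fbxo43 by 1.16 (SE 0.07) and Bub1b by 0.92 (SE 0.16) under TMM, while their per-ERCC changes of -0.28 to 0.01 did not pass the threshold. Fzr1 fell by 1.14 (SE 0.17, adjusted p 9.15e-09), and its per-ERCC change was -2.27. Plk1 (-1.18) and Fbxo5 (-1.33), not called under TMM, were called lower per ERCC, as Fzr1 was. On that scale 83.6% of all tested genes were called, 82.3% of all being lower, and the median of all was -1.50.

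After 3 h of culture 6 of the 9 members were called in Dis3 cKO oocytes, where 17.3% of all tested genes were (7.42% higher, 9.88% lower). Of the 8 oocyte markers 4 were called higher and 1 lower (list median 0.37, all genes 0.004). Of 8 granulosa markers tested 0 were higher and 1 lower (list median -0.44). Their part in the member changes was not tested. Fzr1 rose from 136 ± 30.2 CPM (SD, n = 15) to 239.6 ± 60.8 (n = 16), by 0.82 (SE 0.17, edgeR adjusted p 2.34e-04), Cdc20 by 0.66 and Plk1 by 0.44. Each of these 3 was also called higher per ERCC (1.27, 1.09 and 0.93), where 36.1% of all tested genes were called higher and 0.949% lower. Mad2l1 (-0.42), Pttg1 (-0.31) and Fbxo43 (-0.22) were lower as shares and called, and per ERCC their changes were 0.06, 0.15 and 0.25 and not called, with the median of all genes at 0.47.

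**Figure D2:**
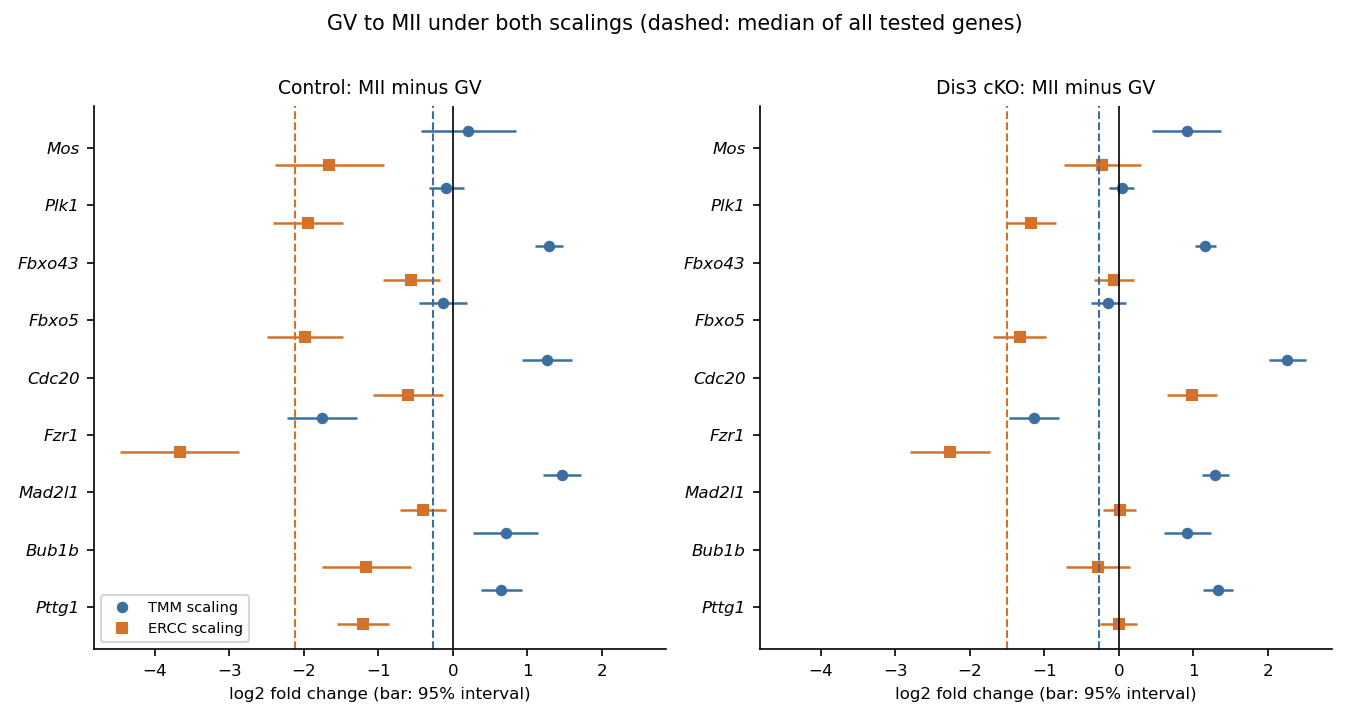
Log2 fold change from GV to MII (horizontal axis, with 95% intervals) of each gene in control (left) and Dis3 cKO cells (right) under TMM (circles) and ERCC scaling (squares); dashed lines mark the median of all tested genes. In controls every ERCC value is below 0 and Fzr1 is lowest on both scales; in Dis3 cKO Cdc20 alone lies above 0 on both scales with its interval.

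The next question was what loss of Dis3 changes at each stage, beginning with GV. In poly(A) GV oocytes 2 of the 9 members were called, both lower in Dis3 cKO, where 21.9% of all tested genes were called, 13.6% higher and 8.33% lower. Plk1 ranged from 135 to 198 CPM (median 158) in 15 Dis3 cKO and from 142 to 254 (median 191) in 8 control oocytes, a change of -0.30 (SE 0.10, edgeR adjusted p 0.0259). Fbxo43 ranged from 106 to 185 CPM (median 159.9) against 151 to 218 (median 179.8), a change of -0.24 (SE 0.08, adjusted p 0.0270). Both sets of ranges overlapped. The Plk1 call was lost without GV control 1, 4 or 5 and the Fbxo43 call without GV control 5, 7 or 8 or Dis3 cKO 6, with adjusted p up to 0.0931 and 0.0933. Under ERCC scaling 4 members were called, all lower, these 2 and Mad2l1 (-0.42, adjusted p 0.0158) and Pttg1 (-0.51, adjusted p 0.00822), beside a median of -0.23 for all genes, where 20.6% of all tested genes were called per ERCC (7.27% higher, 13.3% lower).

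At GV3h Fbxo43 stood out. It ranged from 109.9 to 164 CPM (median 128) in 16 Dis3 cKO and from 197 to 224 (median 214) in 8 control oocytes. The groups did not overlap, and the change was -0.65 (SE 0.08, edgeR adjusted p 7.57e-10) under TMM and -0.69 (adjusted p 5.98e-04) under ERCC scaling. In all 5 of 9 members were called at GV3h, where 38.6% of all tested genes were (22.9% higher, 15.7% lower): Fbxo43, Bub1b (-0.48, SE 0.19, adjusted p 0.0347), Pttg1 (-0.31, SE 0.12, adjusted p 0.0281) and Plk1 (-0.26, SE 0.10, adjusted p 0.0332) were lower and Fzr1 was higher (0.51, SE 0.20, adjusted p 0.0353). Of these only Fbxo43 was called under ERCC scaling, where 28.2% of all tested genes were (17.5% higher, 10.6% lower). Only Fbxo43 kept its call in each fit without 1 library. The Plk1 call was lost without GV3h control 2, 4, 5, 7 or 8 or Dis3 cKO 8, that of Bub1b without GV3h control 5, 7 or 8, that of Pttg1 without GV3h control 1 or 4, and that of Fzr1 without any of 9 libraries, with adjusted p up to 0.0854. The Fbxo43 effect at GV3h differed from that at GV by -0.41 (SE 0.12, edgeR adjusted p 0.0413), where 2.04% of all tested genes differed (1.37% higher, 0.667% lower), but 23 of 71 fits without 1 library lost that call (changes of -0.45 to -0.38) and per ERCC it was -0.19 (adjusted p 0.795).

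In MII eggs the pattern was another. Cdc20 ranged from 224 to 594 CPM (median 383) in 16 Dis3 cKO and from 132 to 281 (median 209.6) in 8 control eggs. The ranges overlapped, all 16 Dis3 cKO eggs were above the control mean, and the change was 0.88 (SE 0.15, edgeR adjusted p 1.56e-06) under TMM and 1.21 (SE 0.22, adjusted p 5.10e-06) under ERCC scaling. Pttg1 ranged from 1303 to 5140 CPM (median 2334) against 1626 to 2416 (median 1785), a change of 0.44 (SE 0.12, adjusted p 0.00214), or 0.34 (adjusted p 0.00550) without egg 15, which held the highest value, and 0.70 per ERCC (adjusted p 1.56e-04). Egg 15 had the lowest Mos, Bub1b, Fbxo5 and Plk1 values of its group.

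Mos ranged from 9.62 to 4155 CPM (median 3349) in Dis3 cKO and from 1008 to 3029 (median 1436) in control eggs. Apart from egg 15 the Dis3 cKO eggs held at least 2590 CPM, and the change was 0.76 (SE 0.29, edgeR adjusted p 0.0264), 0.85 (SE 0.17, adjusted p 2.91e-05) without egg 15, and 1.202 per ERCC (adjusted p 0.00221). It was not called when any 1 of MII controls 1 to 5 was left out (adjusted p up to 0.0655) or in a fit of the MII groups alone (adjusted p 0.173). Fzr1 was higher by 0.52 (SE 0.20, adjusted p 0.0326), from 42.8 ± 9.74 CPM (SD, n = 8) to 61.4 ± 35.9 (n = 16), a call lost without any 1 of MII controls 1, 2, 3 and 6 and Dis3 cKO 7 and 11 (adjusted p up to 0.0953). The 2 Dis3 cKO eggs with the most Fzr1, numbers 7 and 11, held 143 and 144 CPM.

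Fbxo43, the APC/C inhibitor of the arrest, was lower in MII Dis3 cKO eggs as a share of the pool only. It ranged from 287.5 to 402 CPM (median 353) against 398 to 539 (median 442) in controls. The change was -0.37 (SE 0.08, edgeR adjusted p 1.66e-04), and per ERCC -0.01 (SE 0.16, adjusted p 0.961). Mad2l1 changed by -0.30 (SE 0.11, adjusted p 0.0165), a call lost without MII control 8 (adjusted p 0.0645), and per ERCC its change was -0.01. In all 6 of 9 members were called in MII eggs (4 higher, 2 lower), where 42.1% of all tested genes were (27.3% higher, 14.8% lower), and Plk1, Fbxo5 and Bub1b were not. A fit of the MII groups alone called 3 (Cdc20, Pttg1 and Fbxo43), where 30.6% of all tested genes were called (17.5% higher, 13.2% lower). ERCC scaling called 4, all higher (Cdc20, Pttg1, Mos and Fzr1), where 37.6% of all tested genes were higher and 4.31% lower.

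The MII effect differed from the GV effect for 2 of the 9 members, where 13.2% of all tested genes differed (9.28% higher, 3.88% lower). For Cdc20 the difference was 1.00 (SE 0.20, edgeR adjusted p 3.07e-04) and for Pttg1 0.68 (SE 0.17, adjusted p 0.00322), or 0.98 and 0.58 without egg 15. Both were also called per ERCC, at 1.58 and 1.204. For Mos it was 0.70 (SE 0.40, adjusted p 0.247), and 0.79 (adjusted p 0.0120) without egg 15. Under ERCC scaling 5 members were called for this difference, also Mos (1.44, adjusted p 0.0112), Fzr1 (1.396, adjusted p 0.0146) and Plk1 (0.77, adjusted p 0.0306), where 29.4% of all tested genes were called higher and the median of all was 0.68. Cdc20 and Pttg1 encode an activator and a target of the APC/C, and Mos encodes a kinase of the cytostatic pathway.

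**Figure D3:**
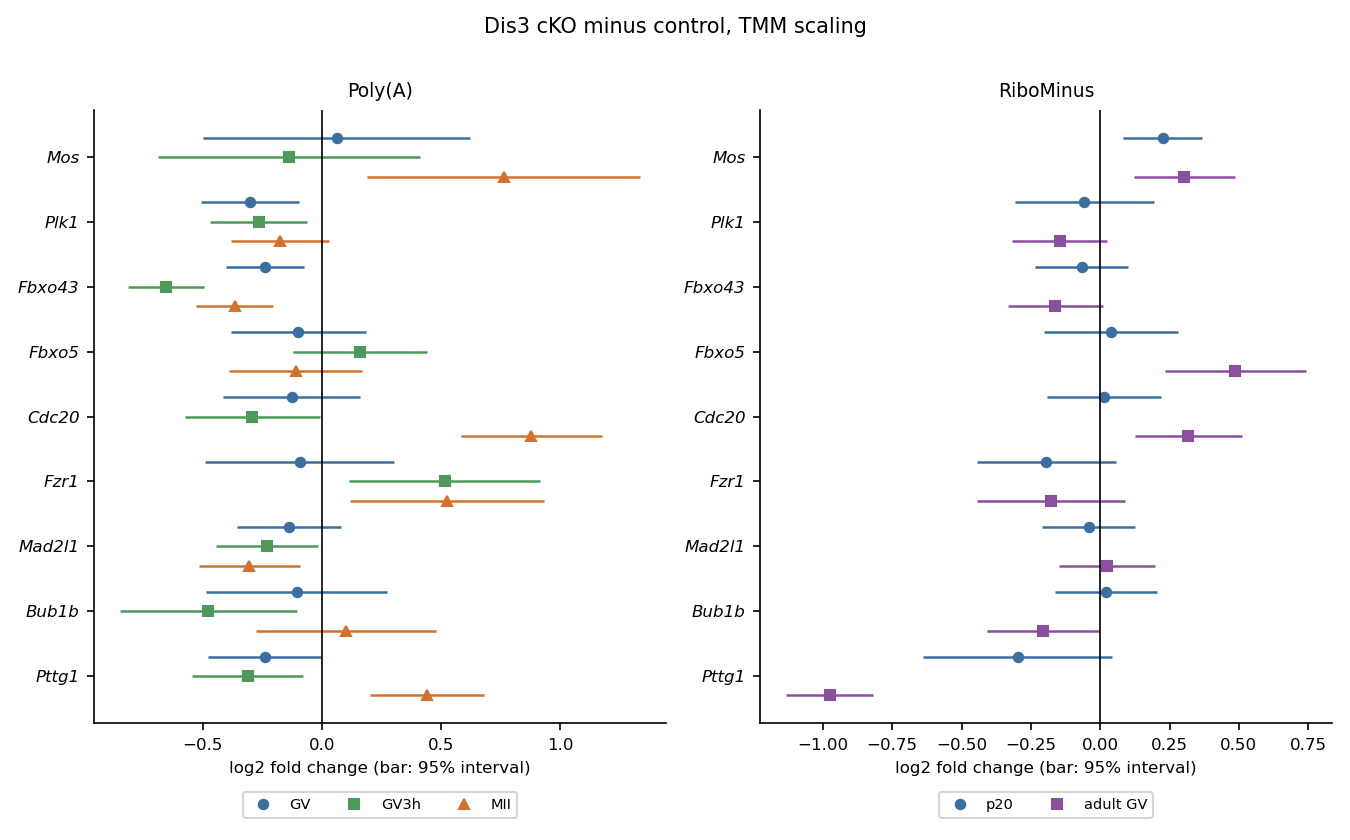
Log2 fold change of Dis3 cKO over control (horizontal axis, TMM scaling, bars: 95% intervals) for each gene at GV, GV3h and MII in poly(A) libraries (left) and at p20 and in adult GV oocytes in RiboMinus libraries (right). Fbxo43 is lowest at GV3h, Cdc20, Mos and Pttg1 lie above 0 at MII, and Pttg1 in adult RiboMinus oocytes lies at -0.98; under ERCC scaling the MII values of Fbxo43 and Mad2l1 move to -0.01 and the adult values of Mos, Fbxo5 and Cdc20 fall below 0.

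RiboMinus libraries do not select for a poly(A) tail, and in adult GV oocytes Pttg1 was their clearest difference. Pttg1 ranged from 90.5 to 121 CPM (median 102) in 8 Dis3 cKO and from 178.5 to 224 (median 205) in 8 control oocytes. The groups did not overlap, and the change was -0.98 (SE 0.07, edgeR adjusted p 8.63e-08) under TMM and -1.50 (SE 0.22, adjusted p 4.54e-05) under ERCC scaling. The library titles carry a tag, 2 per group, whose meaning the labels do not give, and the tags had means of 106 and 101 CPM in Dis3 cKO and 202 and 211 in controls (n = 4 each), and with counts summed per tag the change was -1.03 (adjusted p 0.105), where edgeR called 0 genes, with 3577 at an unadjusted p below 0.05. The poly(A) libraries of GV oocytes gave Pttg1 means of 1184 ± 220 CPM in 8 controls and 1003 ± 105 in 15 Dis3 cKO oocytes (SD), a change of -0.24 (SE 0.12, adjusted p 0.147).

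In all 4 of 9 members were called in adult RiboMinus oocytes, where 28.1% of all tested genes were (15.7% higher, 12.4% lower). Fbxo5 ranged from 117 to 247 CPM (median 168.5) against 104 to 146 (median 130.1), a change of 0.49 (SE 0.12, edgeR adjusted p 0.00574). Cdc20 changed by 0.32 (SE 0.09, adjusted p 0.0145) and Mos by 0.30 (SE 0.09, adjusted p 0.0142), with overlapping ranges. Per ERCC these 3 were not called and turned to -0.07, -0.22 and -0.24, with the median of all genes at -0.52 against 0.03 under TMM. On that scale 6 members were called, all lower, where 40.1% of all tested genes were: Pttg1, Bub1b (-0.76, adjusted p 0.00177), Fbxo43 (-0.72, adjusted p 0.00236), Plk1 (-0.69, adjusted p 0.00330), Fzr1 (-0.68, adjusted p 0.0362) and Mad2l1 (-0.55, adjusted p 0.0104). Gene counts per ERCC count were 260 ± 78.6 in Dis3 cKO and 403 ± 48.5 in control libraries (SD, n = 8 each), and the labels state the addition of ERCC RNA for the poly(A) protocol only. The Fbxo5 level differed between the tags of the Dis3 cKO group, at 196 ± 35.5 and 150.2 ± 24.0 CPM (SD, n = 4 each), both above the control tags at 135 ± 12.3 and 117 ± 15.5.

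At p20 the oocytes without Dis3 alone or Exosc10 alone were compared with control, and the counts of members called were near the shares of all tested genes. In Dis3 cKO 1 of the 9 members was called, where 7.37% of all tested genes were (3.61% higher, 3.76% lower): Mos ranged from 294 to 399.5 CPM (median 366) against 275.5 to 363 (median 312), a change of 0.22 (SE 0.07, edgeR adjusted p 0.0405) that 13 of 32 fits without 1 library lost and that was -0.08 per ERCC. In Exosc10 cKO 0 of the 9 were called by edgeR, where 7.45% of all tested genes were (3.95% higher, 3.50% lower), 3 members reached an unadjusted p below 0.05, and DESeq2 called 1, Pttg1. Pttg1 ranged from 64.9 to 198 CPM (median 142.5) in Exosc10 cKO and from 170.3 to 239 (median 195) in controls, a change of -0.49 (SE 0.17, edgeR adjusted p 0.0680). In p20 Dis3 cKO it was -0.30 (SE 0.17, adjusted p 0.324), and the Dis3 effect in adults differed from that at p20 by -0.70 (SE 0.21, edgeR adjusted p 0.0222), where 9.32% of all tested genes differed (5.34% higher, 3.98% lower); per ERCC that difference was -0.86 (adjusted p 0.159) and with counts summed per title tag -0.72 (adjusted p 0.184), neither of them called.

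**Figure D4:**
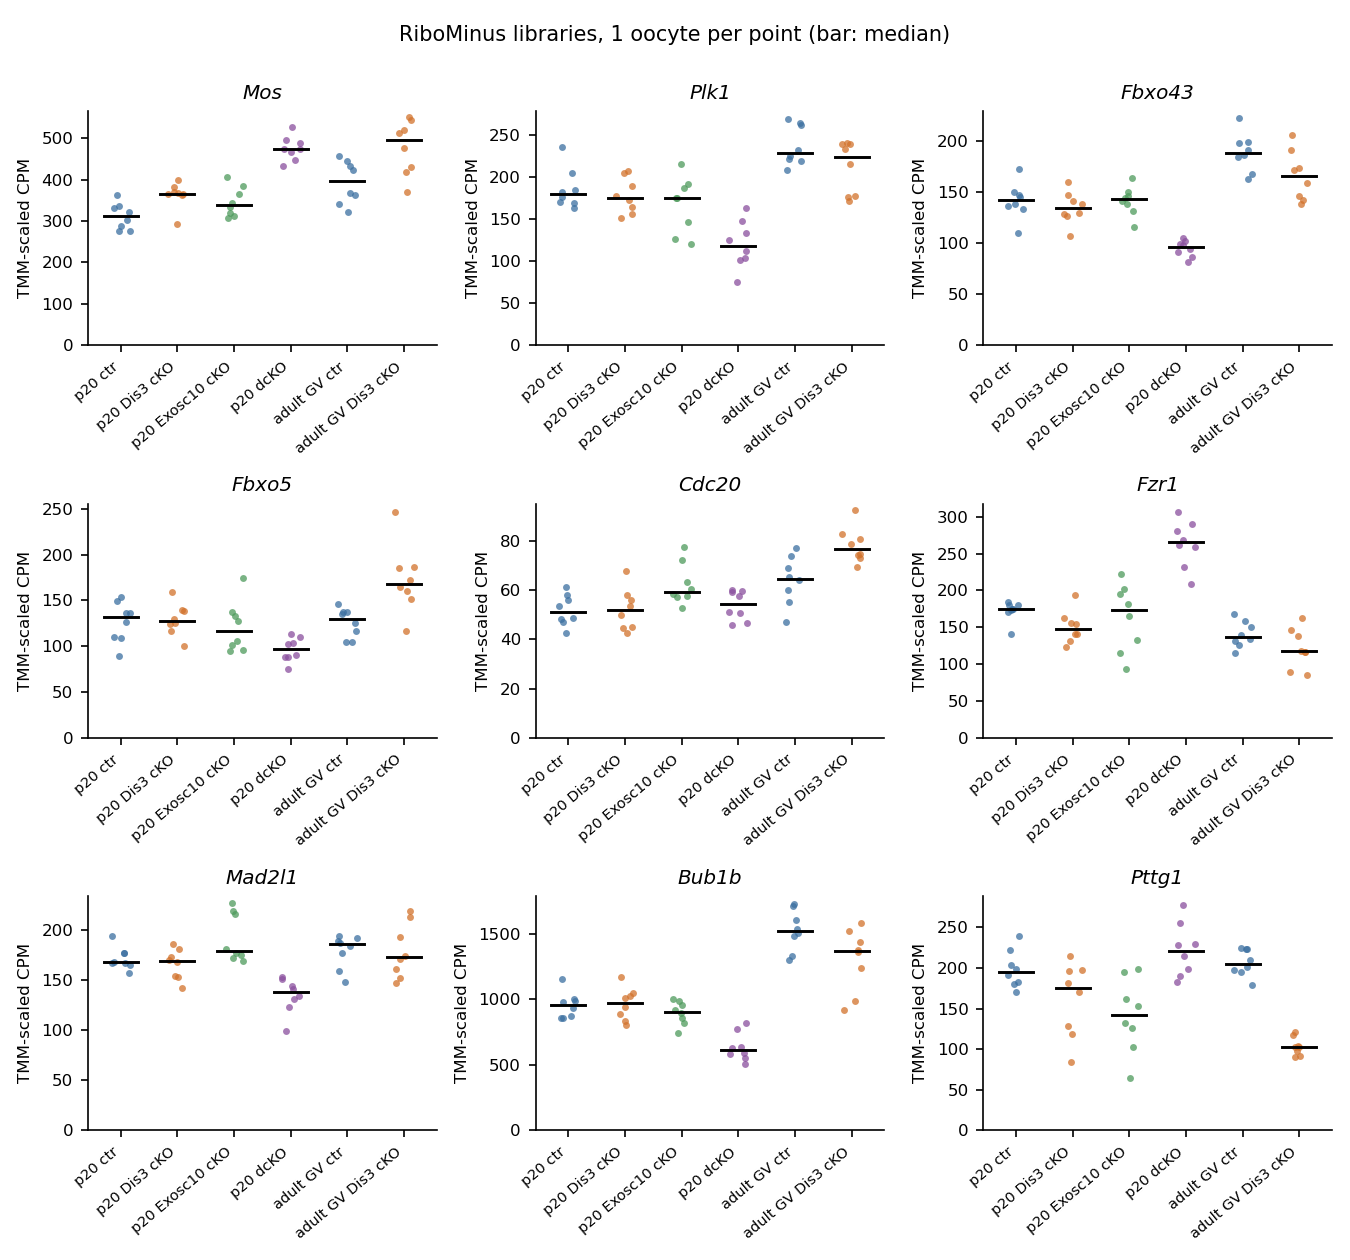
TMM-scaled CPM (linear axes from 0) of the 9 genes in each RiboMinus library, by age and genotype; each point is 1 oocyte and the bar is the group median. The Pttg1 median is lowest in adult Dis3 cKO oocytes (102 CPM). The dcKO group does not overlap the p20 controls for Mos and Fzr1 (higher) and for Plk1, Fbxo43, Bub1b and Mad2l1 (lower). The share of all tested genes without overlap was not counted. For Mos, adult Dis3 cKO oocytes (370 to 551 CPM) overlap dcKO (434 to 528 CPM).

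With both genes removed, most members changed under TMM, as did most of all tested genes. In dcKO 7 of the 9 were called (2 higher, 5 lower), where 53.7% of all tested genes were, 26.6% higher and 27.1% lower. Of the 8 oocyte markers 4 were called higher and 2 lower (list median 0.32, sums of 13240 to 15230 CPM against 10260 to 13530). Of 8 granulosa markers tested 1 was higher and 2 lower (list median -0.46). The part of both lists in these differences was not tested. Mos ranged from 434 to 528 CPM (median 474) in 8 dcKO and from 275.5 to 363 (median 312) in 8 control oocytes, with no overlap, a change of 0.62 (SE 0.07, edgeR adjusted p 6.95e-09) and 0.56 per ERCC (adjusted p 0.00746). Fzr1 ranged from 208 to 307 CPM (median 265) against 140.4 to 184 (median 175), again with no overlap, a change of 0.62 (SE 0.12, adjusted p 7.93e-05) and 0.51 per ERCC (adjusted p 0.0628). These 2 were the members that rose, a kinase of the MII arrest and an APC/C activator of the prophase arrest.

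Plk1 ranged from 74.9 to 163 CPM (median 118) in dcKO against 164 to 235 (median 179.7), a change of -0.62 (SE 0.12, edgeR adjusted p 7.64e-05). Bub1b ranged from 507 to 821 CPM (median 610.4) against 859 to 1158 (median 957), a change of -0.57 (SE 0.09, adjusted p 2.63e-06). Fbxo43 ranged from 81.3 to 105 CPM (median 96.2) against 109.7 to 172 (median 142), a change of -0.57 (SE 0.08, adjusted p 7.74e-07). None of these 3 overlapped its controls, and the share of all tested genes without overlap was not counted. Each was also called per ERCC, at -0.62, -0.60 and -0.60, where 38.2% of all tested genes were called (17.8% higher, 20.4% lower). Fbxo5 (-0.38, SE 0.12, adjusted p 0.00718) and Mad2l1 (-0.34, SE 0.08, adjusted p 7.09e-04) were lower, the latter not called per ERCC (-0.39, adjusted p 0.0773), and Cdc20 (0.06) and Pttg1 (0.17) did not pass the threshold. The same 7 members were called in each fit that left out 1 library and with counts summed per title tag, where 31.8% of all tested genes were called (16.1% higher, 15.7% lower).

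The dcKO oocytes were also compared with the single mutants. Of the 9 members 8 were called against Dis3 cKO, where 51.5% of all tested genes were (26.0% higher, 25.5% lower), and 8 against Exosc10 cKO, where 49.2% were (24.2% higher, 25.0% lower), Cdc20 being the exception in both. Mos was 0.40 above Dis3 cKO (SE 0.07, edgeR adjusted p 1.65e-05) and 0.47 above Exosc10 cKO (SE 0.07, adjusted p 1.25e-06), and Fzr1 0.81 and 0.70 above (SE 0.13 and 0.12). Fbxo43 was lower by -0.50 and -0.56 (SE 0.08 each) and Bub1b by -0.59 and -0.48 (SE 0.09 each). Pttg1 was higher than in Dis3 cKO (0.47, SE 0.17, adjusted p 0.0192, and not called without dcKO 1_2 or Dis3 cKO 1_3, with adjusted p up to 0.0638) and than in Exosc10 cKO (0.66, SE 0.17, adjusted p 0.00143). The Fbxo5 call against Exosc10 cKO was lost without Exosc10 cKO 2_4 (adjusted p 0.0655). With counts summed per title tag edgeR lost the calls of Mad2l1 against Dis3 cKO (adjusted p 0.0617) and of Fbxo5 against Exosc10 cKO (adjusted p 0.0976). Under ERCC scaling 3 members were called against Dis3 cKO (Mos, Fzr1 and Pttg1, all higher) and 4 against Exosc10 cKO (Fzr1 higher, and Fbxo43, Mad2l1 and Bub1b lower). On that scale 36.9% (9.92% lower and the rest higher) and 31.6% (14.6% higher and the rest lower) of all tested genes were called. Under TMM 5 of the 8 oocyte markers were higher and 1 lower in dcKO against each single mutant (list medians 0.45 and 0.71). Of 8 granulosa markers tested 0 were higher and 3 lower against Dis3 cKO (list median -0.26). Against Exosc10 cKO 1 was higher and 2 lower (list median -0.80). The part of both lists in these differences was not tested. The comparisons with the 2 single mutants share the dcKO libraries.

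**Figure D5:**
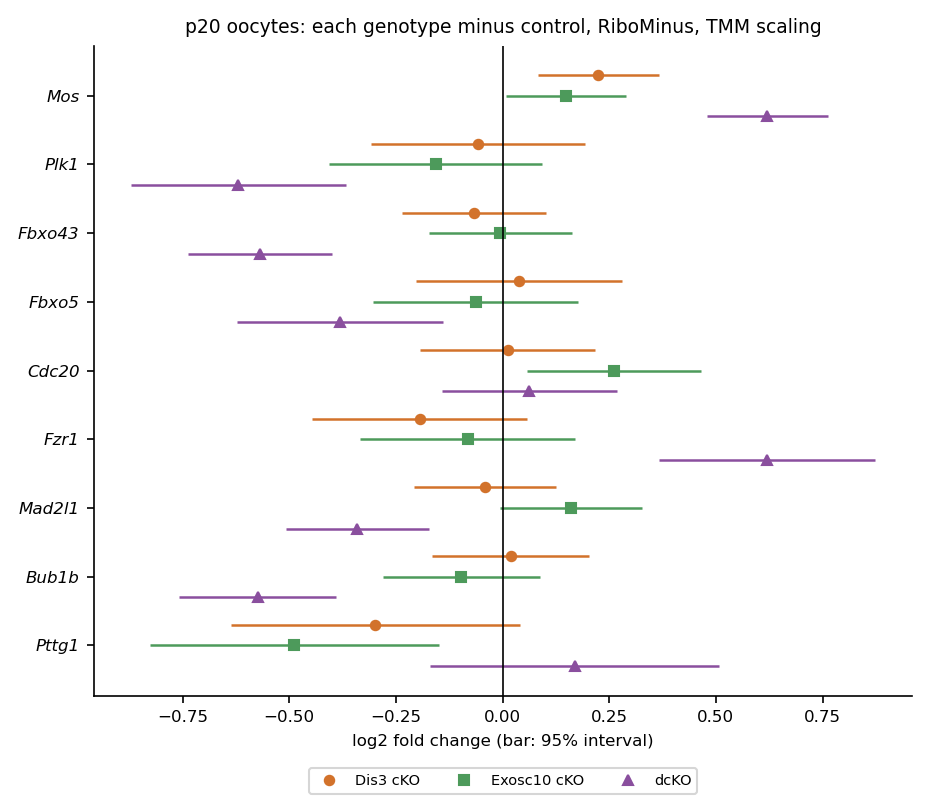
Log2 fold change of Dis3 cKO, Exosc10 cKO and dcKO over control at p20 (horizontal axis, TMM scaling, bars: 95% intervals) for each gene. The intervals of the single mutants mostly include 0, whereas in dcKO Mos and Fzr1 lie at 0.62 and Plk1, Fbxo43 and Bub1b at -0.62, -0.57 and -0.57; the 3 genotypes share the same controls.

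Between p20 and adult controls, 5 of the 9 members were called, all higher in adult GV oocytes, where 19.1% of all tested genes were called, 8.69% higher and 10.4% lower. Of the 8 oocyte markers 1 was higher and 5 lower (list median -0.36), and of 9 granulosa markers tested 0 were higher and 2 lower (list median -0.29). Their part in the member differences between ages was not tested. Bub1b ranged from 859 to 1158 CPM (median 957) at p20 and from 1299 to 1725 (median 1522) in adults, with no overlap, a change of 0.67 (SE 0.10). Fbxo43 was higher by 0.41 (SE 0.08, edgeR adjusted p 4.20e-04), Plk1 by 0.36 (SE 0.12), Mos by 0.34 (SE 0.08) and Cdc20 by 0.30 (SE 0.10, adjusted p 0.0254), the last a call lost without adult control AM1758_3 or AM1759_4 or p20 control 1_1 or 2_4 (adjusted p up to 0.0690). Per ERCC all 9 were called lower in adults, at -1.98 to -1.02, as were 85.7% of all tested genes (median of all -1.69). Equal spiking of both ages is not known. With counts summed per tag edgeR called 0 of the 9 and 1.04% of all tested genes (0.434% higher, 0.605% lower).

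The same system was read through 37 further genes in 3 lists, chosen for known function with earlier results of these data known. Of 16 APC/C subunits and its conjugating enzymes, 5 were higher and 10 lower at MII than at GV in controls (list median -0.62, all genes -0.27), and per ERCC 15 were lower. Of all tested genes 58.5% were called in this comparison (22.7% higher, 35.8% lower), and 87.5% were lower per ERCC. The largest changes were those of Anapc11, the catalytic RING subunit (80.9 ± 8.13 to 16.5 ± 5.75 CPM, SD, n = 8 each, -2.29), Anapc10, a substrate-binding subunit (38.9 ± 6.68 to 145 ± 18.6, 1.9005, and 0.03 per ERCC), and Anapc13 (10.6 ± 2.28 to 2.88 ± 1.86, -1.87). Of 10 checkpoint genes 1 was higher and 6 lower, while the members Mad2l1 and Bub1b were higher as shares. The 1 was Mad2l1bp (p31comet), whose protein takes MAD2 out of its checkpoint complex (11.8 ± 5.29 to 55.3 ± 16.9 CPM, 2.23, and 0.39 per ERCC), and Mad1l1 (-1.10) and Zw10 (-0.78) were the largest falls. Of 11 genes of arrest and exit 5 were higher and 2 lower, among them Mapk3, the kinase ERK1 below MOS (261 ± 15.7 to 32.7 ± 13.4 CPM, -3.00), Btrc (-1.27) and Map2k1, the kinase MEK1 (1.23, and -0.62 per ERCC).

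In MII Dis3 cKO eggs 6 APC/C genes were higher and 1 lower than in controls (list median 0.20, all genes 0.16), so that 7 of 16 were called where 42.1% of all tested genes were (27.3% higher, 14.8% lower). Anapc15 (1.49), Anapc13 (1.22) and Anapc11 (0.98) led, and each was also higher per ERCC (1.62, 1.69 and 1.51). Without egg 15 their TMM changes were 1.10, 1.26 and 1.04, each called. The spread among Dis3 cKO eggs was wide. Anapc15 stood at 30.4 to 272 CPM (median 42.7) against 15.1 to 29.97 in controls. Anapc13 stood at 2.08 to 19.1 (median 4.60) against 0.97 to 6.64, and Anapc11 at 11.1 to 75.6 (median 25.7) against 9.31 to 24.9. Of the checkpoint list 0 were higher and 4 lower, with Knl1, the kinetochore scaffold (199 ± 57.0 to 105 ± 33.9 CPM, SD, n = 8 and 16, -0.92), Zwilch (-0.90) and the kinase Ttk (-0.69) the largest, and per ERCC Knl1 alone of these 3 was called (-0.62). Of the 11 arrest and exit genes 1 was higher, Mapk3 (1.08, and 1.15 without egg 15), and 1 lower. Mapk3 ranged from 14.4 to 244 CPM (median 33.7) in Dis3 cKO and from 20.2 to 53.7 (median 25.3) in control eggs, so that the medians differed by less than the means.

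In p20 dcKO oocytes 1 APC/C gene was higher and 4 lower, Cdc16 (-0.73), Anapc16 (-0.65) and Ube2s (-0.51) among them, where 53.7% of all tested genes were called (26.6% higher, 27.1% lower). Of the checkpoint list 2 were higher and 4 lower, Knl1 falling from 179.9 ± 20.7 to 29.7 ± 9.48 CPM (SD, n = 8 each), a change of -2.59, while Trip13 (1.12) and Mad2l1bp (1.07) rose. Of the arrest and exit list 2 were higher and 7 lower, with Rps6ka2 (-1.89, from 1.98 CPM) and Camk2g, the calcium-dependent kinase of egg activation (398 ± 24.2 to 231 ± 27.3 CPM, -0.78), among the latter. Medians of the 3 lists were -0.07, -0.10 and -0.33 beside -0.01 for all genes, and that of the 9 members was -0.34.

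Over the 71 poly(A) libraries the members fell into like and unlike patterns of log2 CPM, given as descriptions, since many libraries share a stage and genotype. Mad2l1 and Fbxo43 went together (Pearson r 0.90), as did Mad2l1 and Pttg1 (0.87) and Bub1b and Mos (0.85), and Mad2l1 and Fzr1 were opposed (-0.92). Without MII Dis3 cKO egg 15, a choice made after the data were seen, over 70 libraries, the 3 values with Mad2l1 were 0.91, 0.87 and -0.92. Bub1b and Mos then stood at 0.75, and Mos and Mad2l1 at 0.64, against 0.17 with that egg. The tested genes most like Mad2l1 were Pigf (0.97), Omt2b (0.97) and Magoh (0.96), and those most like Fbxo43 were Bcl2l10, Sf3b1 and Tmcc3 (0.96, 0.95 and 0.95). For Mos they were Lbr (0.97), Klhl18 and Plat (0.91 each), values that were 0.90, 0.68 and 0.83 without egg 15, and for Fzr1 Pgs1 (0.92), Cyth2 (0.92) and Gm29253 (0.91).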

How the data were processed

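Single oocytes were sequenced as poly(A) libraries (oligo-dT beads, Nextera) or as RiboMinus libraries (Ovation Solo, random hexamers), per the labels' protocols. The authors deposited raw gene counts, one table per library; cutadapt 2.5, STAR 2.7.2a and HTSeq 0.9.1 are named in the submitters' processing notes, and the annotation release and strand setting are not given in the sources used here. CUT&Tag peak lists, with a signal per peak, were deposited by the authors, made from libraries sampled to a common depth per the labels, with SEACR named in the processing notes.

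Counts were tested in edgeR 4.0.16 (R 4.3.3; quasi-likelihood test, TMM, filterByExpr, Benjamini-Hochberg over all tested genes, adjusted p threshold 0.05, 2-sided), after a test on simulated data. ERCC counts stayed out of library sizes and gave the ERCC scaling. All 71 poly(A) libraries shared a fit, as did the 16 adult and the 32 p20 RiboMinus libraries; adult against p20 used all 48. Each of the 9 genes was named in every comparison; other genes were the 3 with the largest called change per list in 3 comparisons, and the 3 most correlated genes for 4 members. The members, lists and tests were chosen with earlier results of these data known. DESeq2 1.42.0, ERCC scaling, no filter, the compared groups alone, sums per title tag, a replicate block and left-out libraries were tried. The counting error of single libraries is covered by the spread between them. Whether ranges overlap was read for the genes named only, with no share over all tested genes. No pair of libraries held identical values. Oligo-dT capture can depend on poly(A) tail length, whose part in the poly(A) levels was not tested. The series' design text gives 16 GV Dis3 cKO oocytes, of which 15 were analysed here. The values of 1 gene of the arrest and exit list are not reported here.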

Additional observations from a re-analysis of the deposited data

Results flagged for a closer look

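In 6 of 81 groups of libraries checked (9 genes, groups of 4 to 10), 1 library lay far from the others by Dixon's criterion, where chance gives about 1 in 20. Mos stood at 2403 CPM in GV control oocyte 1, with the next highest at 1794. Fbxo5 stood at 239.2 CPM in GV control oocyte 8 and Cdc20 at 141.7 CPM in GV control oocyte 4, the next highest Fbxo5 value being 205. Pttg1 stood at 2416 CPM in MII control egg 8, with the next at 1950. In RiboMinus libraries Mos was low in p20 Dis3 cKO oocyte 2_4, at 293.8 CPM with the next lowest at 362, and Fzr1 was low in p20 control oocyte 2_1, at 140.4 CPM with the next lowest at 171. The causes were not tested.

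For 3 genes edgeR's test of the difference itself called unlike responses to Dis3 removal at separate stages or ages. For Fbxo43 the effect at GV3h minus that at GV was -0.41 (SE 0.12, adjusted p 0.0413), a call lost in 23 of 71 fits that left out 1 library. The effect at MII minus that at GV was 1.00 for Cdc20 (SE 0.20, adjusted p 3.07e-04) and 0.68 for Pttg1 (SE 0.17, adjusted p 0.00322). For Pttg1 the effect in adult GV oocytes minus that at p20 was -0.70 (SE 0.21, adjusted p 0.0222) in RiboMinus libraries, a call lost under ERCC scaling (-0.86, adjusted p 0.159) and with counts summed per title tag (-0.72, adjusted p 0.184).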

How the results depend on the processing

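The number of the 9 genes called changed most under ERCC scaling, from 2 to 4 for Dis3 cKO at GV, 5 to 1 at GV3h, 1 to 0 at p20, 4 to 6 in adults, 2 to 1 for GV3h against GV in controls, 6 to 3 in Dis3 cKO, 7 to 4 for MII against GV in Dis3 cKO, 8 to 3 and 8 to 4 for dcKO against Dis3 cKO and Exosc10 cKO, 5 to 9 for adult against p20, and from 1 to 0, 2 to 5 and 1 to 0 for the differences of the Dis3 effect at GV3h, at MII and in adults. The number also went from 6 to 4 for Dis3 cKO at MII and from 6 to 9 for MII against GV in controls. Per ERCC 6.09% of all tested genes were called for Dis3 cKO at p20 and 0.679% for GV3h against GV in controls. For the differences at GV3h and in adults these shares were 1.38% and 3.38%. For dcKO against control Fzr1 and Mad2l1 lost their calls. Of 153 single-gene results 26 were called on at least one scale and changed direction under ERCC scaling. For MII against GV in controls these were Mos -1.66, Fbxo43 -0.55, Cdc20 -0.60, Mad2l1 -0.40, Bub1b -1.16 and Pttg1 -1.21, and in Dis3 cKO Mos -0.22, Plk1 -1.18, Fbxo43 -0.062, Bub1b -0.28 and Pttg1 -0.0021. For GV3h against GV in Dis3 cKO they were Fbxo43 0.25, Mad2l1 0.059 and Pttg1 0.15; for Dis3 cKO in adults Mos -0.24, Fbxo5 -0.072, Cdc20 -0.22 and Mad2l1 -0.55, and at p20 Mos -0.081. For adult against p20 they were Mos -1.36, Plk1 -1.33, Fbxo43 -1.26, Cdc20 -1.40, Mad2l1 -1.63, Bub1b -1.02 and Pttg1 -1.65. The cause was not tested.

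Without the low-count filter 1 gene was called at GV, 3 at GV3h, 1 for GV3h against GV in controls, and 0 for the GV3h difference and for Dis3 cKO at p20. With only the compared groups fitted 3 were called at MII, where 30.6% of all tested genes were. For GV3h against GV in controls 5 were called, where 2083 of 13785 tested genes were, against 471 of 17389 in the main fit. With sums per title tag 0 were called for Dis3 cKO in adults and at p20, for adult against p20 and for its difference, where fewer samples entered. With title numbers 1 to 8 the count of members was 3 at GV3h, 0 for the GV3h difference and 1 for the MII difference. Of 16554 tested genes 6317, 463 and 1828 were called there. Without GV control 1 the count of members was 1 at GV, where 3633 of 17647 tested genes were called. DESeq2 called 1 member for Exosc10 cKO, where 1529 of 15882 tested genes were called. No called single-gene result changed direction under an alternative other than ERCC scaling, left-out libraries included; some that were not called did, such as Plk1 for MII against GV in controls, at -0.16 to 0.07 without 1 library.

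Leaving out 1 library gave 0 to 2 genes at GV, 2 to 6 at GV3h, 4 to 6 at MII, 1 to 2 for GV3h against GV in controls, 4 to 5 for Dis3 cKO in adults and for adult against p20, 0 to 1 for p20 Dis3 cKO, for Exosc10 cKO and for the GV3h difference, 2 to 3 and 1 to 2 for the MII and adult differences, and 7 to 8 for dcKO against either single mutant. The shares of all tested genes called were not kept for each of these fits.

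Same-numbered libraries showed little shared deviation, with at most 1 of 8 pairs per comparison correlated above 0.1 and at most 1 library closest to its own number. A weak link between same-numbered libraries could go unseen in this check, and the labels do not say that the numbers pair samples. A replicate block gave 2 genes at GV, 5 at GV3h, 4 at MII and 7 for dcKO. For adult RiboMinus oocytes no such block was possible, because their title tags differ between groups. A block by title tag alone was not tried at p20. With polymerase peaks above the median signal of their list, chosen after the data were seen, Fzr1 lost its peak.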

Other observations

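In GV control oocytes Pttg1 stood at 1184 ± 220 CPM in poly(A) libraries (n = 8) and 206.5 ± 16.5 in RiboMinus libraries (n = 8), a ratio of 5.73, and in Dis3 cKO oocytes the ratio was 9.71. For Mos the ratios were 4.10 in controls and 3.53 in Dis3 cKO. For the other 7 genes they lay between 0.725 and 1.55. The assays were normalized separately, and the ratios carry no test.

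Among the 8 MII control eggs, the 3 with the highest Mos (2560 to 3029 CPM in eggs 6 to 8) had the 3 lowest Cdc20 values, 184.3, 160.1 and 131.5 CPM, against 203.8 to 280.7 in eggs 1 to 5. This was seen after the values were known and was not tested.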
